A study of Homo sapiens with 4 samples.

Results

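Long noncoding RNA genes that are widely studied for their place in the nucleus or their link to cancer were followed here: MIR205HG, LINC01234, MALAT1, NEAT1, HOTAIR, PVT1, DANCR, TUG1, MIR22HG and OIP5-AS1. They are 10 of the 60487 genes in each deposited table, taken by gene symbol, and all 10 reached 1 FPKM (sequenced fragments scaled to transcript length and to library size, a level that can be compared between genes) in at least 1 library. Of these, 8 were listed as well studied genes. The remaining members, MIR205HG and LINC01234, were chosen by their FPKM values across these same libraries, so their values are a description and were given no test. RNA came from HCC1937, a long-established line of human breast carcinoma cells without working BRCA1. The groups were vector cells (BRCA1 -/- in the labels) and wtBRCA1 cells (wild type in the labels), each given DMSO or OTX-015, with 1 library each. DMSO is the solvent, and OTX-015 (birabresib) is an inhibitor of the BET proteins, which bind acetylated histones and help start and extend transcripts; no dose or time is stated in the labels. All 4 groups share the HCC1937 background, and how many clones the vector and wtBRCA1 lines hold is not stated either, so BRCA1 cannot be told apart from any other difference between these lines.

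Long noncoding RNAs are transcribed like messenger RNAs but are not translated into a known protein, and many of them act in the nucleus. MALAT1 gathers in nuclear speckles, the stores of splicing factors, and NEAT1 is the scaffold on which paraspeckles assemble. Others carry small RNAs within their transcripts or lie beside a coding gene: MIR205HG and MIR22HG are hosts of miR-205 and miR-22, OIP5-AS1 (cyrano) holds a site for miR-7, PVT1 neighbours MYC, and HOTAIR is transcribed within the HOXC cluster.

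The sequences that give these genes their names or partners are shown first. The hosted miRNAs, and the miRNA that pairs with OIP5-AS1, are given as their RefSeq mature sequences (GRCh38.p14), 5′ to 3′, with the seed (bases 2 to 8) in capitals. miR-205-5p lies at chr1:209432166-209432187 on the plus strand, miR-22-3p at chr17:1713914-1713935 on the minus strand and the listed copy of miR-7-5p at chr9:83969811-83969834 on the minus strand.
miR-205-5p: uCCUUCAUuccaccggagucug
miR-22-3p: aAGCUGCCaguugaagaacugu
miR-7-5p: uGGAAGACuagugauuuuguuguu
The 3 seeds differ from each other. The miR-22 arms fall in an exon of 19 of 19 GENCODE 29 transcripts of MIR22HG. The miR-205 arms are spanned by 8 of 10 MIR205HG transcripts, overlap an exon in 7 and lie wholly within an exon in 0. A match to the miR-7 seed was found in 2 of 10 OIP5-AS1 transcripts, and 1 of these matches, at position 2887 of the 8829 nt transcript, is shown with the seed match in capitals because its 5′ part also holds a run of 12 bases complementary to the 3′ part of the miRNA.
OIP5-AS1 window: caacaaaatcaccaatGTCTTCCa
MALAT1 is not given a poly(A) tail in the usual way: its 3′ end is cut just before a small tRNA-like RNA, mascRNA, and ends in a genome-encoded A-rich stretch. The 60 bases before mascRNA (chr11:65506057-65506116, plus strand, GENCODE 29 on GRCh38) hold a run of 13 A, in capitals, which matters because the libraries were made from poly(A)-selected RNA.
MALAT1 3′ end: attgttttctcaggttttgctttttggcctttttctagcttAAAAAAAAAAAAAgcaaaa

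The promoters of the pair of genes picked for their pattern, and of DANCR, whose response differed in direction between the lines, are shown as RefSeq GRCh38.p14 windows of 300 bases from 250 before to 50 after the start. The letters CCAAT were searched on both strands. So were those of the GC box, spelled GGGCGG, and those of the E-box, spelled CACGTG. The TATA box was searched as the letters TATAAA. The AP-1 site and the cAMP response element were searched too, as TGACTCA for the first and, for the second, as the letters TGACGTCA. Matches are in capitals, in either orientation, and neighbouring motifs may overlap.
MIR205HG promoter: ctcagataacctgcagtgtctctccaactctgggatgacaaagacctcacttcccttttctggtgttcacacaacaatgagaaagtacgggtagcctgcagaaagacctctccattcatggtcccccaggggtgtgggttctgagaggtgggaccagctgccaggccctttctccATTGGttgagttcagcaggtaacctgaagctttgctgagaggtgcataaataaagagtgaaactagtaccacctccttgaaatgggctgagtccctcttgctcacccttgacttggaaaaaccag
LINC01234 promoter: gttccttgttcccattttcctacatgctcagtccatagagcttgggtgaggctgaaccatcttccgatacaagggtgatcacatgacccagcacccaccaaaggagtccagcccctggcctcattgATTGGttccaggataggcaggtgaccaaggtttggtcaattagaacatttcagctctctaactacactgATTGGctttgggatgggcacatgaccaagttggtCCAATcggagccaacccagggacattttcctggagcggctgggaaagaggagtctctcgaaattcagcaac
DANCR promoter: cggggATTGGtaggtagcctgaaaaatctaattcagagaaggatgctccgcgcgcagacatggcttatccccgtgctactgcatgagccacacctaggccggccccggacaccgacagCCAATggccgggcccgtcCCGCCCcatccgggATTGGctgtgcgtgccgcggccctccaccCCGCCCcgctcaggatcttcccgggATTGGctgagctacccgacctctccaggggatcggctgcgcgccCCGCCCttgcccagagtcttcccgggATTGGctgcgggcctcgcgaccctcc
The windows lie at chr1:209428570-209428869 (plus), chr12:113773634-113773933 (minus) and chr4:52712144-52712443 (plus). CCAAT occurs once in the MIR205HG window, as in 34.6% of 35116 promoters with at least 1 match. It occurs 3 times in the LINC01234 window, where 3.26% of promoters hold at least 3, and 5 times in the DANCR window, where 0.359% hold at least 5. The DANCR window also holds 3 GC boxes, and 15.8% of promoters hold at least 3. Among the members with a window in the RefSeq table, an E-box (7.26% of promoters) was found in TUG1 and OIP5-AS1. NEAT1, HOTAIR and PVT1 are named only. A match is a description of letters and not of a bound site.

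The depth of the libraries is unknown, since the tables hold FPKM and no counts. BRCA1 itself measured 37.2 FPKM with DMSO and 40.8 with OTX-015 in the vector libraries and 171 and 2712 in the wtBRCA1 libraries, so the lines differ in the direction of their names. Within the wtBRCA1 line, OTX-015 and DMSO thus also differ in BRCA1 level, and the part of this in the members' responses was not tested. The 10 highest genes took 15.3 to 17.4% of the summed FPKM under DMSO and 33.8 to 39.2% under OTX-015. AC026803.1 alone took 3.66% (vector) and 2.55% (wtBRCA1) under DMSO, and 17.3% and 14.8% under OTX-015. Median-of-ratios rescaling removed 0.087 log2 units from the OTX-015 minus DMSO difference in the vector line and 0.054 in the wtBRCA1 line. The part of these shares in the members' values was not tested. All 8 epithelial markers looked at, such as EPCAM, were at 1 FPKM or more in every library. Of 16 markers of leukocytes, endothelium, fibroblasts and melanocytes, 3 to 6 reached 1 FPKM, their summed level was 26.4 to 32.1 in the vector line and 48.6 to 64.6 in the wtBRCA1 line, and CD3E, VWF, DCN, COL1A2 and PDGFRB were listed at 0 throughout. CD14, a monocyte marker, was at 0.109 and 0 FPKM in the vector libraries and 9.51 and 5.62 in the wtBRCA1 libraries. It reached 1 FPKM in the wtBRCA1 libraries only. The filter had thus fixed that it was higher there, so no test is given. CD68 lay between 15.5 and 44.5 FPKM and COL1A1 between 1.86 and 9.78. The part of these markers in any difference between the lines was not tested. In such bulk RNA, fewer cells with a transcript and less of it per cell cannot be told apart.

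MALAT1 was the highest member in every library, HOTAIR the lowest in both vector libraries and LINC01234 in both wtBRCA1 libraries. MALAT1 (ENSG00000251562, chr11:65497688-65506516, plus strand) stood at 159 to 314 FPKM, at the 94.5th percentile of the 18296 genes kept in the wtBRCA1 DMSO library and at the 97.0th under OTX-015. OIP5-AS1, an antisense RNA that pairs with miR-7, came next under DMSO, at 71.6 FPKM (vector) and 91.1 (wtBRCA1). PVT1, DANCR and NEAT1 lay between 18.5 and 47.7 FPKM under DMSO, and TUG1 at 10.5 and 11.5. The order was not the same in all libraries. PVT1 was the third member in the vector DMSO library and the seventh in the vector OTX-015 library, while NEAT1 went from the sixth place to the second. With 1 library per group there is no replicate spread, so neighbours in this order cannot be separated from each other.

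**Figure D1:**
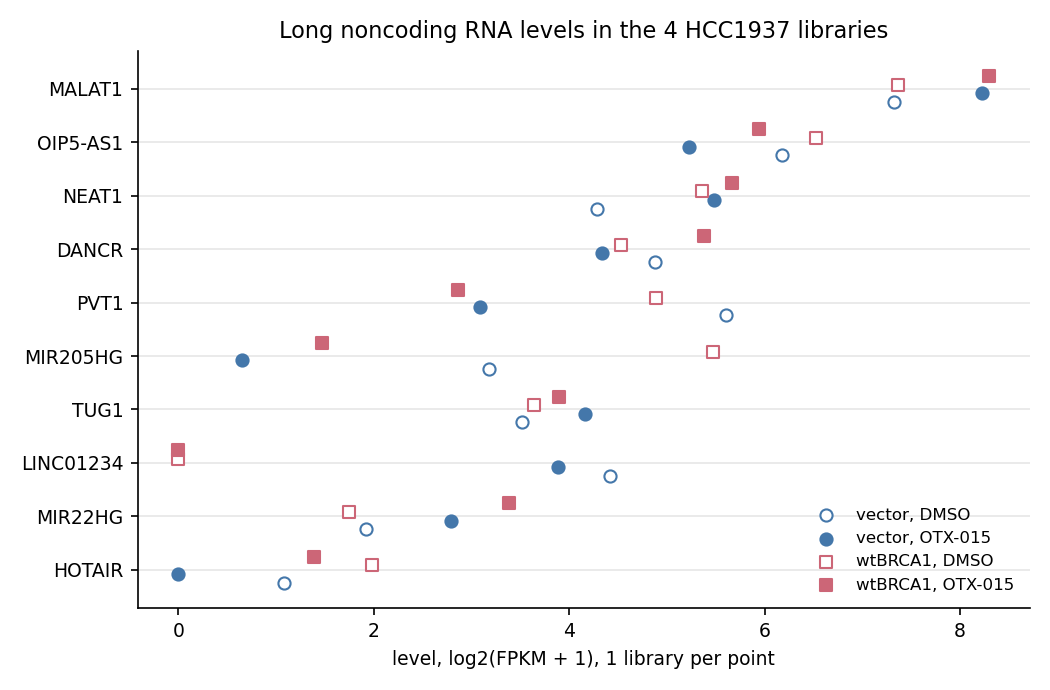
Level of each member in the 4 libraries as log2(FPKM + 1), 1 library per point: circles are vector and squares wtBRCA1 cells, open under DMSO and filled under OTX-015. PVT1 and MIR205HG have both filled points far left of both open points, and LINC01234 has both wtBRCA1 points at 0.

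PVT1 fell under OTX-015, MALAT1 lay just outside the threshold, and MIR205HG was lower in both lines. The OTX-015 effect over both lines was fitted with limma on log2(FPKM + 1) with line as a term, which leaves 1 residual degree of freedom per gene. The SE of a gene is therefore pooled with that of other genes of similar level. An adjusted p sets the mean effect against the disagreement between the 2 lines over many genes, and not against the spread between repeated cultures. Of the 8 members tested, 1 fell (PVT1) and 0 rose, where 2.67% of all genes fell and 3.66% rose; 4 of the 8 (PVT1, MALAT1, MIR22HG and OIP5-AS1) had an unadjusted p under 0.05, as had 22.8% of all genes. The median of the 8 was 0.30 log2 units, against 0.03 for all genes tested. By size alone, with a call at 1 log2 unit and no test, 1 member was higher (NEAT1) and 3 lower (MIR205HG, PVT1 and HOTAIR, the last against a library listed at 0) in vector cells, where 13.0% of genes were higher and 12.7% lower. In wtBRCA1 cells 1 was higher (MIR22HG) and 2 lower (MIR205HG and PVT1), where 13.0% of genes were higher and 13.4% lower. Lower in both lines by 1 log2 unit were 2 members (MIR205HG, for which nothing is read from this, and PVT1), against 4.43% of all genes, and 0 were higher in both, against 4.57%. In sign, 4 of the 10 were lower and 4 higher in both lines, against 30.2% and 33.0% of all genes. The counts by size and sign include the picked members, MIR205HG and LINC01234, and nothing is read from their part in them. With 1 library left out, the fit with both terms has no residual degree of freedom. The fit without the other term then called 0 genes for either effect, but with all 4 libraries that fit already called only 1 for OTX-015 and 57 for the line, so the removal of a library cannot be told apart from that of the term.

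**Figure D2:**
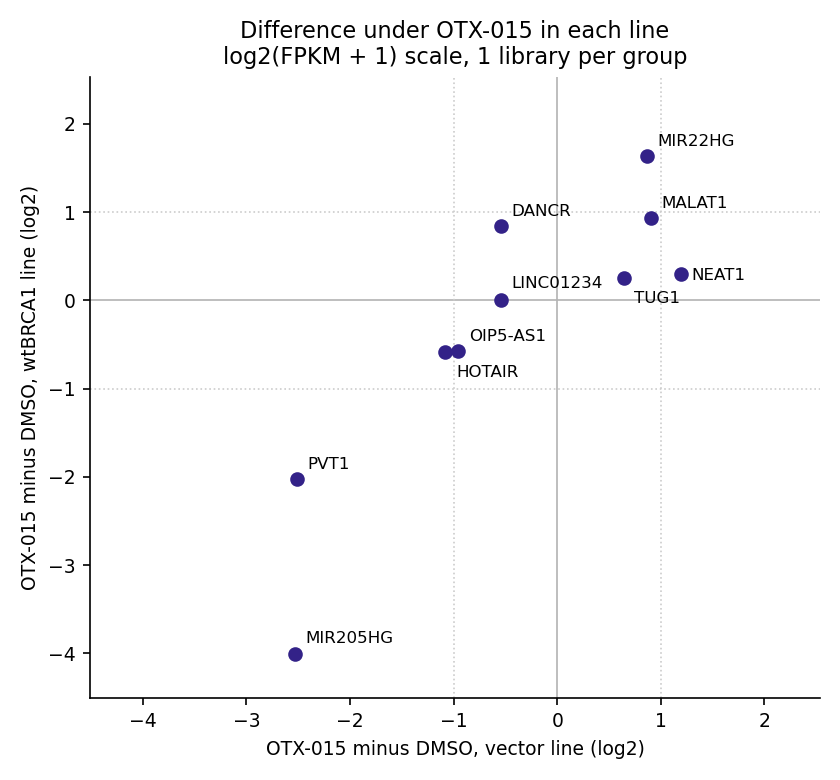
OTX-015 minus DMSO difference of each member on the log2(FPKM + 1) scale in the vector line (horizontal) and the wtBRCA1 line (vertical), 1 library per group; dotted lines mark 1 log2 unit. MIR205HG and PVT1 lie below -2 on both axes, and DANCR is the member with opposite signs.

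PVT1 (ENSG00000249859, chr8:127794533-128101253, plus strand) is a long noncoding gene next to MYC that is often gained together with it in tumours. The DMSO libraries held 47.7 FPKM (vector) and 28.6 (wtBRCA1), and the OTX-015 libraries 7.52 and 6.26. OTX-015 was below DMSO by 6.35-fold in the vector and by 4.57-fold in the wtBRCA1 line. The mean difference was -2.27 ± 0.35 log2 units (SE from limma, 4 libraries, adjusted p = 0.0085). The call was lost without the filter on low values (adjusted p = 0.064), after quantile normalization (0.052), without the mean-variance trend (0.16) and with the line term left out, both with all 4 libraries (0.48) and with 1 of them removed as well (0.58 to 0.68). The difference was negative in each setting. MYC, the transcription factor gene 53099 bp upstream, was at 27.4, 18.2, 24.8 and 10.8 FPKM (vector DMSO, vector OTX-015, wtBRCA1 DMSO, wtBRCA1 OTX-015). Its mean difference of -0.85 did not pass the limma test (adjusted p = 0.18). GSDMC, the next coding gene on the other side, gave -1.27 (limma adjusted p = 0.10). From the list of MYC locus and network genes, 0 of the 6 kept passed in either direction for OTX-015 or for the line. Among all genes, 3.66% were higher and 2.67% lower for OTX-015, and 4.88% and 3.41% for the line. A minus-strand pseudogene entry inside the PVT1 span, RP11-55J15.2, was at 21.1, 7.74, 25.0 and 14.3 FPKM in the same order, and the strand setting of the authors' counting is not stated. The genes whose 4 values, centred on their mean, lay closest to those of PVT1 were MRPL39 (distance 0.11 log2 units), MAPK3 (0.15) and TM4SF1 (0.17).

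**Figure D3:**
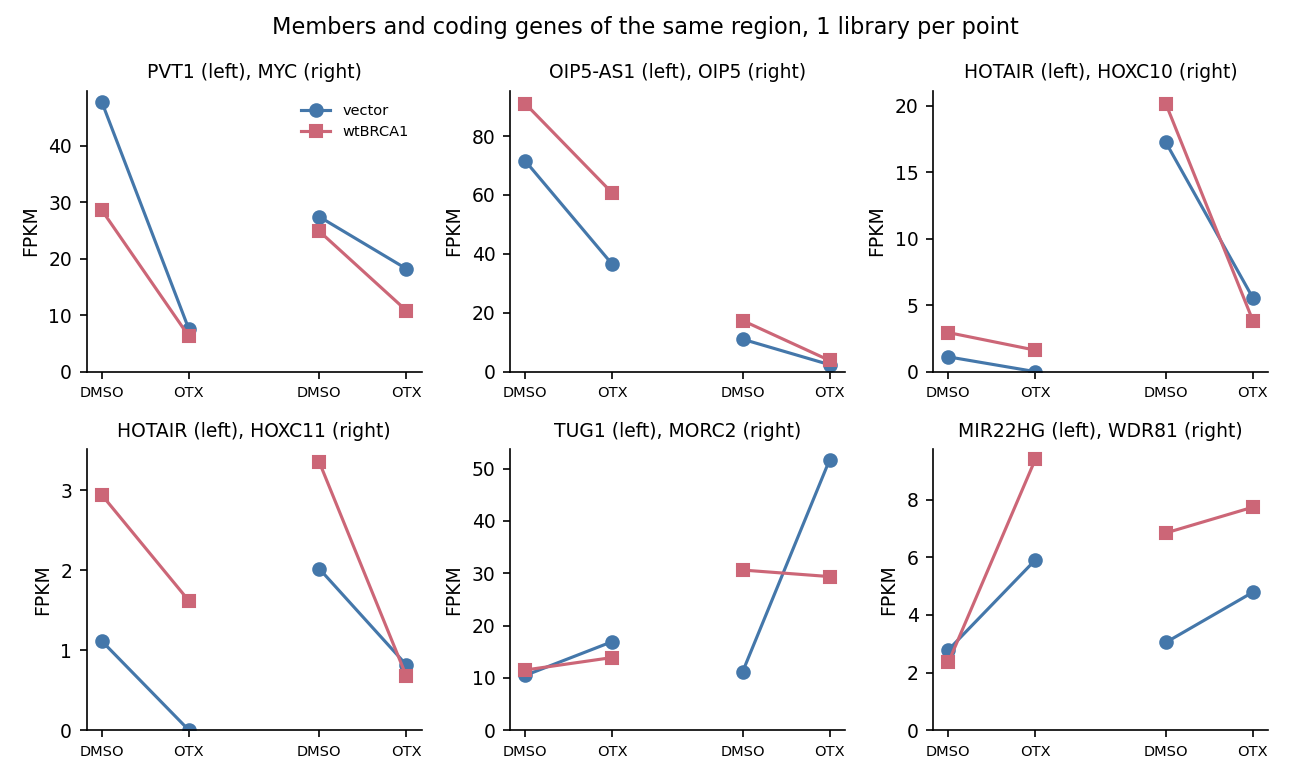
FPKM of 5 members (left in each panel) and of coding genes beside or overlapping them (right) under DMSO and OTX-015, 1 library per point, circles for vector and squares for wtBRCA1 cells; each panel has its own scale. Under OTX-015 PVT1 is at 7.52 and 6.26 FPKM and MYC at 18.2 and 10.8, and MORC2 is highest in the vector OTX-015 library at 51.7.

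MIR205HG (ENSG00000230937, chr1:209428820-209432838, plus strand) hosts miR-205, a miRNA of basal and epithelial cells that represses ZEB1 and ZEB2. With DMSO the gene measured 8.04 FPKM (vector) and 43.4 (wtBRCA1), and with OTX-015 0.567 and 1.77. The wtBRCA1 DMSO library was the highest by far, and both OTX-015 libraries were below 2 FPKM. OTX-015 against DMSO was 14.2-fold lower in vector and 24.5-fold lower in wtBRCA1 cells, or -2.53 and -4.00 on the log2(FPKM + 1) scale. The vector value ran from -3.61 to -1.23 with pseudocounts of 0.1 and 5. The wtBRCA1 libraries were 5.41-fold above vector with DMSO and 3.12-fold above it with OTX-015. The difference between the lines' responses, -1.48 log2 units, became -0.93 with a pseudocount of 0.1. The separate entry for the MIR205 hairpin was listed at 0 in every library, so the miRNA itself was not measured.

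The genes closest to MIR205HG in pattern were CTA-384D8.34 (distance 0.70), CTB-13L3.1 (0.73) and KRT15 (0.76). KRT15, a basal keratin, was at 41.1, 11.3, 422 and 19.5 FPKM (vector DMSO, vector OTX-015, wtBRCA1 DMSO, wtBRCA1 OTX-015). The list of miR-205 targets and basal regulators had 13 genes kept. Under OTX-015, 1 rose (CDH1, E-cadherin, by 1.31 log2 units) and 1 fell (KRT15, which fell by 3.07) in the limma fit. Of all genes, 3.66% rose and 2.67% fell. In wtBRCA1 cells 2 of the 13 were higher past the threshold, KRT5 by 4.79 and KRT15 by 2.03, and 0 lower. Of all genes, 4.88% were higher and 3.41% lower. The list was chosen with earlier results of these data known, so nothing is read from its counts. The line call of KRT15 held in 1 of 11 other settings of fit, filter and scaling, and its OTX-015 call in 6. Those called are keratins and a cadherin. TP63, the basal transcription factor, measured 0.147 FPKM in the vector DMSO library and 9.93 in the wtBRCA1 DMSO library, and was listed at 0 in both OTX-015 libraries.

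MALAT1 was about equal in the 2 lines and higher under OTX-015 in both. Its DMSO values were 159 FPKM (vector) and 164 (wtBRCA1), and its OTX-015 values 299 and 314. The OTX-015 libraries were 1.88-fold and 1.91-fold above DMSO. The mean difference of 0.92 ± 0.24 log2 units missed the threshold (limma, adjusted p = 0.054). Robust estimation was the only alternative in which it passed (limma adjusted p = 0.043). The limma adjusted p was 0.066 and 0.085 with pseudocounts of 0.1 and 5, 0.074 at 5 FPKM and 0.12 without a filter. The line difference was 0.06 (limma adjusted p = 0.91). An entry that shares the deposited locus, AP000769.1, was higher than MALAT1 itself, at 501, 1326, 1006 and 1187 FPKM (vector DMSO, vector OTX-015, wtBRCA1 DMSO, wtBRCA1 OTX-015), and a second MALAT1 entry was listed at 0. AP000769.1 has no GENCODE 29 record under its deposited identifier, and how reads were divided among these entries is unknown. The mascRNA entry was listed at 0. Closest in pattern to MALAT1 were CBX2 (distance 0.06), NCDN (0.06) and PI4KA (0.06). Of the 23 nuclear speckle protein genes, 0 rose and 0 fell in either limma comparison. The shares of all genes were 3.66% higher and 2.67% lower for OTX-015, and 4.88% and 3.41% for the line.

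NEAT1 (ENSG00000245532, chr11:65422774-65445540, plus strand) was low in 1 library. The vector DMSO library held 18.5 FPKM, against 43.7 with OTX-015, and the wtBRCA1 libraries held 40.1 with DMSO and 49.7 with OTX-015. OTX-015 was 2.36-fold above DMSO in vector and 1.24-fold in wtBRCA1 cells, and wtBRCA1 was 2.17-fold above vector under DMSO and 1.14-fold under OTX-015. Neither mean effect passed the limma test (OTX-015 0.75 ± 0.35, adjusted p = 0.23; line 0.63, adjusted p = 0.31). The difference of the responses was -0.89 log2 units, with no test. The short and long forms of NEAT1 were not separated in the tables, and the entries NEAT1_1, NEAT1_2 and NEAT1_3 were listed at 0. Its nearest patterns were AP2A1 (distance 0.05), SMIM19 and DAPP1. FRMD8, a coding gene 9249 bp from NEAT1, was at 6.78, 17.9, 10.2 and 9.45 FPKM (vector DMSO, vector OTX-015, wtBRCA1 DMSO, wtBRCA1 OTX-015). Among 23 paraspeckle protein genes, 0 rose and 2 fell under OTX-015, where 3.66% of all genes rose and 2.67% fell. Those that fell were HNRNPR, by -1.46 (limma adjusted p = 0.026), and DAZAP1, by -1.10 (limma adjusted p = 0.049). Between the lines DAZAP1 was higher (1.26) and PSPC1, a core paraspeckle protein, lower (-1.25) in wtBRCA1 cells. Of all genes, 4.88% were higher and 3.41% lower. The OTX-015 call of DAZAP1 held in 2 of 11 other settings and the line call of PSPC1 in 1.

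MIR22HG (ENSG00000186594, chr17:1711493-1717174, minus strand), the host of miR-22, was higher under OTX-015 in both lines without passing the test. Both DMSO libraries were low, at 2.79 FPKM (vector) and 2.35 (wtBRCA1), against 5.91 and 9.41 with OTX-015. The OTX-015 libraries were 2.12-fold and 3.996-fold higher. The limma mean was 1.25 ± 0.40 log2 units (adjusted p = 0.10, unadjusted p = 0.012). WDR81, a coding gene on the other strand whose span overlaps that of MIR22HG, was at 3.05, 4.79, 6.85 and 7.74 FPKM (vector DMSO, vector OTX-015, wtBRCA1 DMSO, wtBRCA1 OTX-015). The MIR22 hairpin entry was listed at 0. Closest in pattern were CTC-453G23.5 (distance 0.08), FGFR2 (0.08) and HSF2 (0.10). Of 14 miR-22 target genes kept, 1 rose under OTX-015, the cell cycle inhibitor CDKN1A by 3.29 log2 units, and 0 fell. Of all genes, 3.66% rose and 2.67% fell. None of the 14 passed for the line, where 4.88% of all genes were higher and 3.41% lower.

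OIP5-AS1 (ENSG00000247556, chr15:41283990-41309737, plus strand) was lower under OTX-015 in both lines, without passing the test. From the DMSO levels of 71.6 FPKM (vector) and 91.1 (wtBRCA1), the OTX-015 libraries stood at 36.5 and 60.7. They were 1.96-fold and 1.5-fold lower (limma mean -0.76 ± 0.30, adjusted p = 0.16). OIP5, a centromere protein gene on the opposite strand whose 3′ part overlaps it, was at 11.02, 2.37, 17.4 and 3.79 FPKM (vector DMSO, vector OTX-015, wtBRCA1 DMSO, wtBRCA1 OTX-015) and fell by 1.89 log2 units (limma adjusted p = 0.020). Without a stated strand setting, reads from the overlap cannot be assigned to either gene. NUSAP1, the next coding gene, was at 41.8, 45.7, 90.5 and 175 FPKM in the same order and higher in the wtBRCA1 line (limma adjusted p = 0.019). The nearest patterns to OIP5-AS1 were ZNF146 (distance 0.07), CD22 (0.08) and TAF1A (0.10). None of 17 Argonaute and miRNA processing genes, which include ZSWIM8, a gene of miRNA decay, passed in either limma comparison. For all genes the shares were 3.66% higher and 2.67% lower for OTX-015, and 4.88% and 3.41% for the line.

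DANCR (ENSG00000226950, chr4:52712404-52720351, plus strand), a host of small nucleolar RNA that is raised in several cancers, had opposite differences in the 2 lines. Vector libraries gave 28.4 FPKM with DMSO and 19.2 with OTX-015, whereas wtBRCA1 libraries gave 22.1 and 40.5. OTX-015 was thus 1.48-fold lower in vector and 1.83-fold higher in wtBRCA1 cells, a response difference of 1.39 log2 units with no test. By size, 1 member had a higher response (DANCR) and 1 a lower one (MIR205HG) in wtBRCA1 cells, against 13.2% and 14.0% of all genes. MIR205HG was picked for its pattern, so nothing is read from its part in this. Neither mean effect of DANCR passed (limma adjusted p = 0.85 for OTX-015 and 0.65 for the line). Its nearest patterns were C18orf32 (distance 0.09), IFI27L1 (0.15) and POLD2 (0.16). The SNORA26 and MIR4449 entries within it were listed at 0, and RP11-177B4.1, a minus-strand pseudogene at its 3′ end, was at 6.24, 12.8, 5.45 and 5.08 FPKM (vector DMSO, vector OTX-015, wtBRCA1 DMSO, wtBRCA1 OTX-015).

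TUG1 (ENSG00000253352, chr22:30969245-30979395, plus strand), a broadly expressed RNA, stayed within 10.5 to 16.9 FPKM. The DMSO libraries gave 10.5 (vector) and 11.5 (wtBRCA1), and the OTX-015 libraries 16.9 and 13.9. The mean difference was 0.45 ± 0.35 log2 units for OTX-015 (limma adjusted p = 0.50) and -0.07 for the line (limma adjusted p = 0.92). Entries on the opposite strand within TUG1 were far higher than TUG1: RP3-430N8.10 was at 124 to 247 FPKM and RP3-430N8.11 at 207 to 330 FPKM. MORC2, whose start is 947 bp away on the opposite strand, was at 11.2, 51.7, 30.6 and 29.4 FPKM (vector DMSO, vector OTX-015, wtBRCA1 DMSO, wtBRCA1 OTX-015). Its OTX-015 mean was 1.03 (limma adjusted p = 0.24). Closest to TUG1 in pattern were HSPA8P1 (distance 0.02), CD99L2 (0.04) and ARCN1 (0.04).

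HOTAIR (ENSG00000228630, chr12:53962308-53974956, minus strand) is known for its binding to Polycomb repressive complex 2 and LSD1, and it did not exceed 2.94 FPKM. The vector DMSO library held 1.11 FPKM and the vector OTX-015 library was listed at 0, against 2.94 and 1.62 for the wtBRCA1 libraries. The OTX-015 and DMSO libraries overlapped. The limma mean was -0.83 ± 0.52 for OTX-015 (adjusted p = 0.39) and 1.14 ± 0.52 for the line (adjusted p = 0.22). Fold calls of HOTAIR were lost with a pseudocount of 5, at -0.29 in vector cells and 0.40 between the lines under OTX-015. The plus-strand entry HOTAIR_3, a 97 nt fragment, was at 115, 234 and 541 FPKM and listed at 0 in wtBRCA1 cells under OTX-015, and it was left out with other short RNAs.

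HOXC10, a posterior HOX gene of the same cluster, fell under OTX-015 by 1.80 log2 units (limma adjusted p = 0.024). Of 13 HOXC genes listed, 9 were kept, and 6 of these reached 1 FPKM in DMSO libraries only. The filter had thus fixed that they were lower under OTX-015, except for HOXC6 in vector cells, where DMSO gave 0.433 FPKM. No count of directions is read from the 6. The other 3, HOXC10, HOXC13 and HOXC13-AS, reached 1 FPKM under both treatments. HOXC13 was at 6.79, 1.22, 4.59 and 3.48 FPKM (vector DMSO, vector OTX-015, wtBRCA1 DMSO, wtBRCA1 OTX-015) and did not pass (limma adjusted p = 0.21). HOXC13-AS was at 5.33, 0.860, 3.37 and 2.91 FPKM in the same order (limma adjusted p = 0.29). HOXC8, which was not kept, was at 0.132, 0.149, 0.0959 and 0 FPKM. None of the 9 passed for the line, where 4.88% of all genes were higher and 3.41% lower. The HOXC10 call was lost with a pseudocount of 5 (limma adjusted p = 0.053), without the filter (0.098), after quantile normalization (0.072) and without the trend (0.16). HOXC10 went from 17.2 FPKM to 5.54 between the vector libraries and from 20.1 to 3.84 between the wtBRCA1 libraries. HOXC11, whose span overlaps the HOTAIR start on the other strand, was at 2.02, 0.814, 3.35 and 0.674 FPKM (vector DMSO, vector OTX-015, wtBRCA1 DMSO, wtBRCA1 OTX-015). It is among the 6 genes that reached 1 FPKM in DMSO libraries only, so its direction is not read. It did not pass for OTX-015 (limma adjusted p = 0.24). Among 16 genes of Polycomb repressive complex 2 and LSD1-CoREST, PHF19, a Polycomb accessory subunit, fell under OTX-015 by -2.88 (limma adjusted p = 0.0020), and EZH1, a methyltransferase subunit, was lower in wtBRCA1 cells by -1.75, a call that held in 5 of 11 other settings. The other 15 did not pass in the respective comparison. Of all genes, 2.67% fell under OTX-015 and 3.41% were lower in wtBRCA1 cells.

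**Figure D4:**
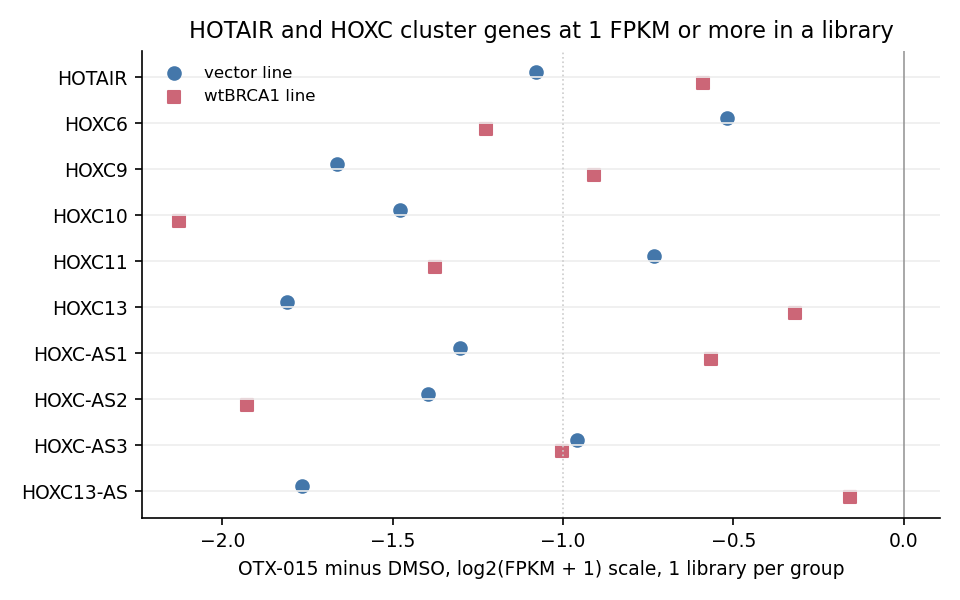
OTX-015 minus DMSO difference, log2(FPKM + 1) scale, of HOTAIR and the 9 HOXC cluster genes kept, circles for vector and squares for wtBRCA1 cells, 1 library per group; the dotted line marks -1. HOXC10 in wtBRCA1 cells is the lowest at -2.13. Of the 9 genes, 6 passed the 1 FPKM filter in DMSO libraries only, which fixed their side of 0 except for HOXC6 in vector cells.

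LINC01234 (ENSG00000249550, chr12:113679459-113773683, minus strand), an RNA studied in several carcinomas, was detected only in the vector libraries. These held 20.4 FPKM with DMSO and 13.7 with OTX-015, and both wtBRCA1 libraries were listed at 0, so no fold between the lines is given. The log2(FPKM + 1) difference under DMSO was -4.42 and ran from -7.68 to -2.35 with pseudocounts of 0.1 and 5. Within the vector line OTX-015 was 1.49-fold lower than DMSO. Its neighbour RBM19, an RNA-binding protein gene, was at 23.1, 30.9, 8.47 and 22.6 FPKM (vector DMSO, vector OTX-015, wtBRCA1 DMSO, wtBRCA1 OTX-015). Closest to LINC01234 in pattern were ABCG2 (distance 0.41), a drug efflux pump, TFF1 (0.44) and MSLN (0.47). ABCG2 measured 20.0 and 9.58 FPKM and TFF1 17.5 and 18.4 in the vector libraries, DMSO first, and the wtBRCA1 libraries list both at 0.

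Between the lines, none of the 8 tested members passed. In the limma fit 0 of 8 were higher and 0 lower, where 4.88% and 3.41% of all genes were; 0 of the 8 had an unadjusted p under 0.05, which 23.5% of all genes had. By size, 2 members were higher (MIR205HG and NEAT1) and 1 lower (LINC01234) in wtBRCA1 cells under DMSO, against 14.8% and 11.7% of all genes. Under OTX-015, 2 were higher (HOTAIR and DANCR) and 1 lower (LINC01234), against 15% and 12.6%. Under both treatments 0 were higher and 1 lower (LINC01234), against 6.11% and 4.43%. With a pseudocount of 0.1, MIR205HG (2.42 and 1.49) and HOTAIR (1.33 and 4.10) passed 1 log2 unit under DMSO and OTX-015 alike. The members' medians were 0.08 under DMSO and 0.39 under OTX-015, against 0.04 and 0.00 for all genes. MIR205HG and LINC01234, picked for their pattern here, enter these size counts and medians, so nothing is read from their part in them. The DMSO comparison and the OTX-015 comparison use different libraries.

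**Figure D5:**
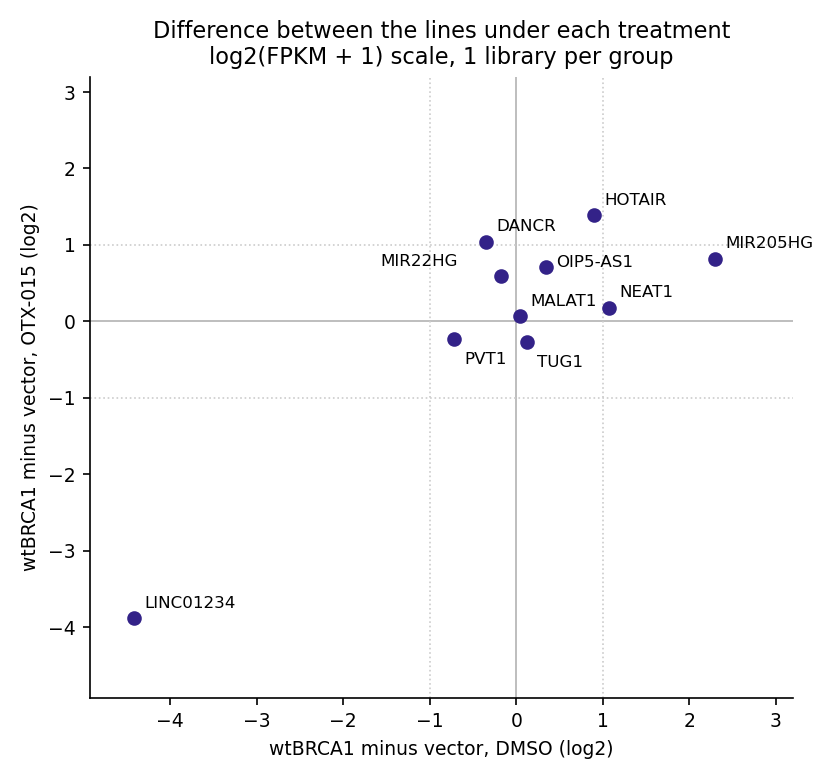
wtBRCA1 minus vector difference of each member on the log2(FPKM + 1) scale under DMSO (horizontal) and OTX-015 (vertical), 1 library per group; dotted lines mark 1 log2 unit. LINC01234 lies apart at -4.42 and -3.88, and MIR205HG is the rightmost at 2.30.

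Of 60 other well studied genes listed, 37 were kept, and under OTX-015 1 fell (CRNDE, by -1.31, limma adjusted p = 0.043) and 0 rose, where 2.67% of all genes fell and 3.66% rose. In wtBRCA1 cells 4 of the 37 were higher past the limma threshold, LINC00152 (2.63), HCP5 (2.26), CBR3-AS1 (1.80) and MIR4435-2HG (1.60), where 4.88% of all genes were higher and 3.41% lower. The 4 lower ones were the small nucleolar RNA hosts SNHG1 (-2.53), SNHG12 (-2.03), ZFAS1 (-1.66) and SNHG5 (-1.35). DANCR, which also hosts small nucleolar RNA, gave 0.35 in the same comparison. The calls held in 4 (MIR4435-2HG) to 9 of 11 other settings between the lines and in 2 for CRNDE. LINC00152 and MIR4435-2HG are near-identical copies, so reads of one may have been counted for the other. Of 19 genes of nuclear RNA stability and decay, 1 fell under OTX-015, the exosome subunit EXOSC3 by -1.44 (limma adjusted p = 0.043, held in 2 of 11 other settings), 0 rose, and 0 passed for the line.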

How the data were processed

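Poly(A)-selected RNA was sequenced from directional libraries, per the labels' protocols. The authors' deposited FPKM values come from Cufflinks after TopHat2 alignment, with hg38 as the build (per the submitters' processing notes); versions, annotation and strand setting are not given in the sources used here. The 4 tables were joined by gene identifier (94.2% of 60487 found in GENCODE 29, the source of coordinates). Short structural RNA genes (7528) were left out, entries sharing a symbol summed, and 18296 genes with at least 1 FPKM in a library kept. limma 3.58.1 (R 4.3.3) was fitted to log2(FPKM + 1), on which differences of low genes are understated, with line and treatment as terms, mean-variance trend and Benjamini-Hochberg adjustment over all genes kept, threshold 0.05. Pairs of libraries have no test. On simulated data, false calls exceeded the threshold in some draws. Members and gene lists were chosen with earlier results of these data known. Named genes are the members, list genes past the threshold or at a list's ends, entries at the members' loci and the 3 nearest patterns (Euclidean distance of centred log2 values) for members at 5 FPKM or more. Alternatives covered pseudocounts, filters, scaling, symbol rows, trend, robust estimation, terms and each library left out.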

Additional observations from a re-analysis of the deposited data

Results flagged for a closer look

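In 3 members, the same contrast had opposite signs in its 2 settings, with 1 library per group, so the difference was not tested. DANCR differed by -0.55 log2 units under OTX-015 in vector cells and by 0.84 in wtBRCA1 cells. The wtBRCA1 minus vector difference of DANCR was -0.35 under DMSO and 1.04 under OTX-015. For TUG1 it was 0.12 under DMSO and -0.27 under OTX-015. For MIR22HG it was -0.18 under DMSO and 0.59 under OTX-015.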

How the results depend on the processing

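No paired analysis was possible because the labels carry no replicate numbers to pair by; the line (or treatment) is already a term of the fit. The count of genes past the threshold for OTX-015, 1157, became 756 and 453 with pseudocounts of 0.1 and 5, 523 at 5 FPKM, 80 without a filter, 625 with median-of-ratios rescaling, 120 with quantile normalization, 4 without the trend and 1 with the line left out. The share of higher calls moved from 57.8% to 68.8% without a filter and 75.0% without the trend. For the line, 1516 became 858 with a pseudocount of 5, 828 at 5 FPKM, 503 without a filter, 722 after quantile normalization, 172 without the trend and 57 with treatment left out. Leaving out each library in turn, with the other factor left out, gave 0 calls each time for both effects, a change of 2 choices at once, since 3 libraries leave no residual degree of freedom with both terms; the lone library of a group is then assumed to vary like the others. Genes at 1 log2 unit with a pseudocount of 5 numbered 1848 (vector, OTX-015), 1944 (wtBRCA1, OTX-015), 1971 (lines, DMSO), 2012 (lines, OTX-015) and 1722 (responses), against 4700, 4823, 4854, 5060 and 4981, and responses at 5 FPKM 2916. The cause was not tested. Small line differences turned: MALAT1 to -0.083 after quantile normalization; without the vector DMSO library MALAT1 to -0.39, PVT1 to 0.78 and MIR22HG to -0.23; without the vector OTX-015 library TUG1 to 0.25; without the wtBRCA1 DMSO library TUG1 to 0.055; without the wtBRCA1 OTX-015 library MALAT1 to -0.41, PVT1 to 0.54, DANCR to -0.074 and MIR22HG to -0.61. The OTX-015 mean of DANCR turned to -0.025 and -0.37 without the wtBRCA1 DMSO and OTX-015 libraries. The fits without a library also leave out the other factor. With a group missing, part of that factor's difference enters the value, so the signs turned in those fits are not read. Compared within each treatment, the line difference of PVT1 was -0.72 under DMSO and -0.23 under OTX-015. PVT1 stayed past the threshold in 7 of 15 settings, between -2.63 and -1.83. NEAT1, DANCR and MIR22HG calls at 1 log2 unit dropped to 0.94, 0.91 and 0.97 with a pseudocount of 5, while OIP5-AS1 in vector cells reached -1.04 after median-of-ratios rescaling. The DANCR call, between the lines under OTX-015, held in 6 of 8 other settings. HOTAIR has no value at the 5 FPKM filter.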
